A study of Rattus norvegicus with 4 samples.

Results

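The comparison described here is the diet response of the hypothalamus set against itself in 2 kinds of offspring: the high-fat (HF) minus standard diet difference in FR30 offspring, minus the same difference in control offspring. It used 4 samples of total RNA from isolated hypothalami of male Wistar rats aged 4 months. These were control offspring on standard diet, control offspring on HF diet, FR30 offspring on standard diet and FR30 offspring on HF diet, with 1 sample each; FR30 offspring had been undernourished before birth. The RNA was labelled with biotin and hybridised to Illumina bead arrays, whose beads carry short DNA probes. Genes entered the comparison if their brightest detected probe had a detection p under 0.01 in all 4 samples, which held for 10100 of the 21397 genes on the array (10373 of 22523 probes). The labels do not say what the HF diet contained, or whether a sample came from 1 animal or a pool.

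The hypothalamus reads signals of energy stores, among them leptin, insulin and nutrients, and sets feeding, energy use and the pituitary hormone axes. In rodents a fat-rich diet is known to alter inflammatory and hormone signalling there, and undernutrition before birth is used as a model of how early life sets the adult response to such a diet. A difference of differences above 0 means that the HF minus standard value was higher in FR30 than in control offspring, and the same number is the prenatal difference on HF diet minus the prenatal difference on standard diet. It can arise from a change in FR30 offspring, in control offspring or in both, so the genes described in full are given with their 4 signals.

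With 1 sample per group no test of this comparison exists, and every difference is a description of these 4 samples without a replicate check. Signals are the authors' normalized intensities ± the SD deposited beside them, in arbitrary units; no header or label says what that SD was taken over. Where 4 signals stand in a row without group names, they run from standard-fed controls through HF-fed controls and standard-fed FR30 rats to HF-fed FR30 rats. Differences are log2 values from background-corrected, quantile-normalized signals, and a size of 1.5-fold (0.585) was used as the threshold. Detected probes numbered between 10579 and 11122 per sample. The samples carried the hypothalamic peptide genes at high signal: Pmch, the gene of melanin-concentrating hormone, lay between 38829 and 39810.0, Avp (vasopressin) between 16155 and 18450.0, and Hcrt (orexin) between 2242 and 2598.

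The difference of diet differences reached 1.5-fold for 125 of 10100 genes (1.24%), with 67 above 0 (0.663%) and 58 below (0.574%). The diet difference itself reached that size for 56 genes in control offspring (0.554%), 13 higher (0.129%) and 43 lower (0.426%) on HF diet, and for 30 in FR30 offspring (0.297%), 18 higher (0.178%) and 12 lower (0.119%). For the diet difference in control offspring this split depended on the scale: 43.8% of the genes past 1.5-fold were higher in the authors' normalized table and 40% without background correction, against 23.2% here. Of the 125 genes, 79 were past 1.5-fold in neither diet difference, and 110 had diet differences of opposite sign, as 4632 of all 10100 genes did. A large difference of differences selects for opposite signs. In the authors' normalized table, 106 of the 125 genes had a difference of differences over 2 propagated deposited SD, against 9.71% of all genes. The 125 genes were picked by size in the same 4 samples, so this contrast follows from the selection and gives no separate support.

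A diet difference of 1.5-fold or more in 1 prenatal group, with under 1.2-fold in the other and a difference of differences past 1.5-fold, was found for 30 genes (0.297%). In control offspring 6 of them were higher and 10 lower on HF diet, and in FR30 offspring 8 were higher and 6 lower. Only 5 genes passed 1.5-fold in both, 3 in the same direction and 2 in opposite directions. The 3 shared genes were 5.36% of the 56 found in control offspring and 10% of the 30 found in FR30 offspring. Across the 10100 genes the diet differences of the 2 prenatal groups, which share no sample but share the normalization, had a Pearson's r of 0.0976 and a Spearman's rho of 0.119.

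**Figure D1:**
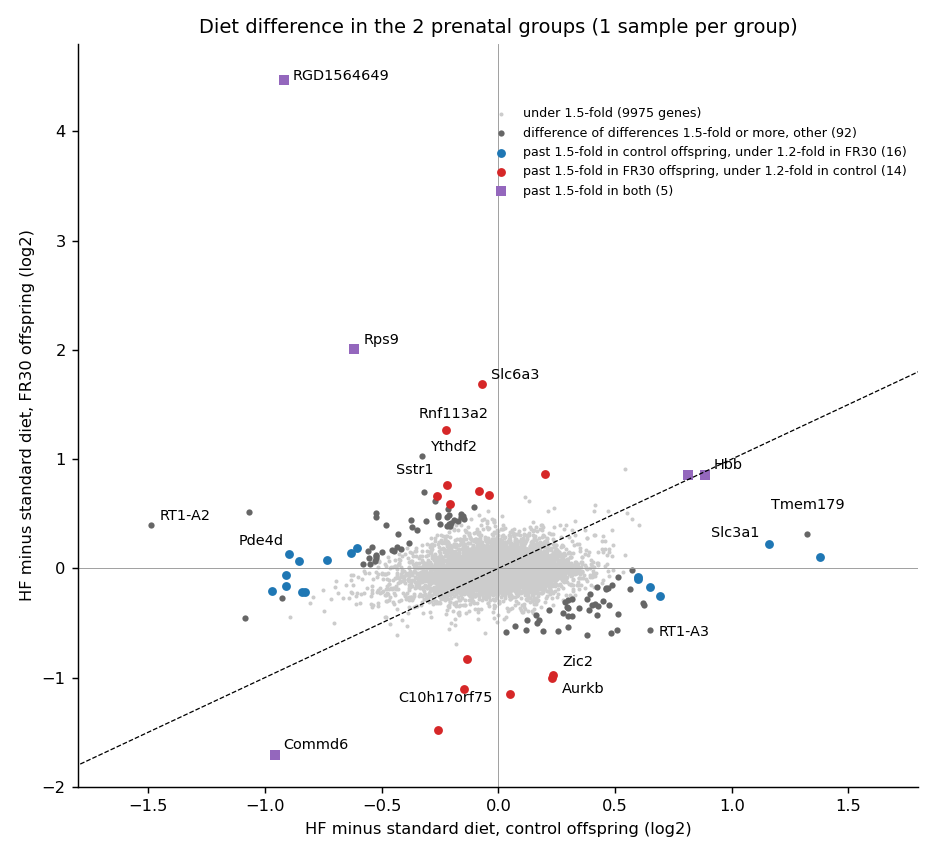
HF minus standard diet difference (log2) of each of 10100 genes in control offspring (horizontal axis) and FR30 offspring (vertical axis), 1 sample per group; the dashed line marks equal differences. The 16 genes past 1.5-fold in control offspring and under 1.2-fold in FR30 offspring lie along the horizontal axis, the 14 of the reverse kind along the vertical axis, and Rps9 and RGD1564649 stand far above the line.

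For 25 of the 125 genes a single sample stood 1.5-fold or more from each of the 3 others, as it did for 39 of all 10100 genes. Each of the 4 samples stood apart in some of these genes. Standard-fed controls were alone on the high side for 4 genes and on the low side for 2, and HF-fed controls for 2 and 3. Standard-fed FR30 rats were alone on the high side for 2 and on the low side for 3, and HF-fed FR30 rats for 5 and 4.

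The HF diet was accompanied by higher signals of the dopamine transporter gene Slc6a3 in FR30 offspring and not in control offspring. Slc6a3, whose product returns dopamine to the nerve ending, had a signal of 370.2 ± 12.2 (deposited SD) in standard-fed controls and 357 ± 10.1 on HF diet, and of 593 ± 13.7 in standard-fed FR30 rats and 1642 ± 33.7 on HF diet. HF-fed FR30 rats stood apart above the other 3 samples, and standard-fed FR30 rats were the next highest. The diet difference was -0.07 in control and 1.68 in FR30 offspring, a difference of differences of 1.76, or 1.52 ± 0.077 (propagated deposited SD) on the authors' normalized scale. Slc6a3 is itself 1 of the 10 detected markers of midbrain dopamine neurons. Without it, 7 of the other 9 had a difference of differences above 0, with a median of 0.13. Ddc, Pitx3, En1, Lmx1a, Lmx1b, Foxa1 and Foxa2 were among the 11 of 21 listed markers without a value here. Of the 21, 19 were on the array, so some of the 11 had no probe and the others were not detected in all 4 samples. Among the 9, the vesicular monoamine transporter Slc18a2 showed 0.46 and Th, the enzyme that limits dopamine synthesis, 0.37. The mean log2 level of the 9 was 9.29 and 9.31 in controls on standard and HF diet and 9.38 and 9.55 in FR30 offspring. Their part in the Slc6a3 value was not tested, and in bulk tissue more cells of a type and more RNA per cell cannot be told apart.

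Sstr1, a receptor for somatostatin, showed a crossed pattern. Its signal was 607 ± 21.0 in standard-fed controls, 543 ± 19.5 on HF diet, 421 ± 12.1 in standard-fed FR30 rats and 619 ± 19.4 on HF diet. Standard-fed FR30 rats were the lowest, and HF-fed FR30 rats lay at the level of standard-fed controls. The diet differences were -0.22 and 0.76, with a difference of differences of 0.99 (0.72 ± 0.095 on the authors' scale). Sst, the gene of its ligand, had diet differences of -0.28 and -0.13, a difference of differences of 0.15. Among 13 detected neuropeptide receptors the list median was 0.07, with 8 above 0, 5 below, and 2 past 1.5-fold, the other being the neuromedin B receptor Nmbr (0.65).

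The RING finger gene Rnf113a2 had signals of 449 ± 13.3 and 402 ± 16.5 in controls on standard and HF diet, and of 314 ± 12.8 and 567 ± 9.28 in FR30 offspring. It was the lowest of the 4 on standard diet in FR30 offspring and the highest on HF diet in the same offspring, with diet differences of -0.23 and 1.26 and a difference of differences of 1.49 (1.01 ± 0.096 on the authors' scale). The organic cation transporter Slc22a2 (0.79), Albfm1 (0.71), Tmem243 (0.66) and the spindle checkpoint kinase Ttk (0.79) made up the remaining named genes of this kind. Slc22a2 was dim, at 189 ± 11.4, 186 ± 7.46, 206 ± 3.61 and 252 ± 5.30, with HF-fed FR30 rats apart on the high side, and on the authors' scale its value was 0.31 ± 0.112. For Tmem243 the sample apart was standard-fed FR30 rats, on the low side, at 335 ± 19.2 against between 466 and 514 in the others.

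Genes lower on HF diet in FR30 offspring alone by size included Aurkb, which had the lowest difference of differences among them and is a kinase of the chromosomal passenger complex that acts in mitosis. Its signal was 1600.1 ± 40.0 in standard-fed controls, 1855 ± 35.2 on HF diet, 1000 ± 32.3 in standard-fed FR30 rats and 567 ± 30.6 on HF diet. Both FR30 samples lay below both control samples, and HF-fed FR30 rats stood apart as the lowest. The diet difference was 0.23 in control and -1.01 in FR30 offspring, a difference of differences of -1.24 (-1.03 ± 0.102 on the authors' scale). A further probe, whose older symbol Aim1 was matched to Aurkb, stayed below detection throughout. The other 12 detected genes of mitosis and the cell cycle had a median of 0.02, with 7 above 0 and 5 below. Of these 12, Ttk (0.79) and the cyclin-dependent kinase inhibitor Cdkn1b (0.62) were past 1.5-fold.

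Zic2, a zinc finger transcription factor of the developing forebrain, had signals of 290.3 ± 11.8 and 317 ± 16.6 in controls on standard and HF diet and of 452 ± 19.1 and 295 ± 9.83 in FR30 offspring. Standard-fed FR30 rats stood apart above the other 3. The diet differences were 0.24 and -0.98, and the difference of differences -1.22 (-0.74 ± 0.123 on the authors' scale). Zyg11b, a substrate receptor of a ubiquitin ligase, had the same shape, at 370.5 ± 13.9, 348 ± 6.03, 586 ± 26.9 and 344 ± 7.59, with a difference of differences of -0.96. A further Zyg11b probe was not detected in any sample. For C10h17orf75 the sample apart was HF-fed FR30 rats, at 222 ± 3.86 against 325 ± 9.41, 331 ± 2.09 and 330.2 ± 9.64 in the others, a difference of differences of -1.20 (-0.60 ± 0.065 on the authors' scale). Tnrc6a, a scaffold of microRNA silencing, was also low in that sample, at 203 ± 4.19 against between 257 and 279, with -0.69.

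**Figure D2:**
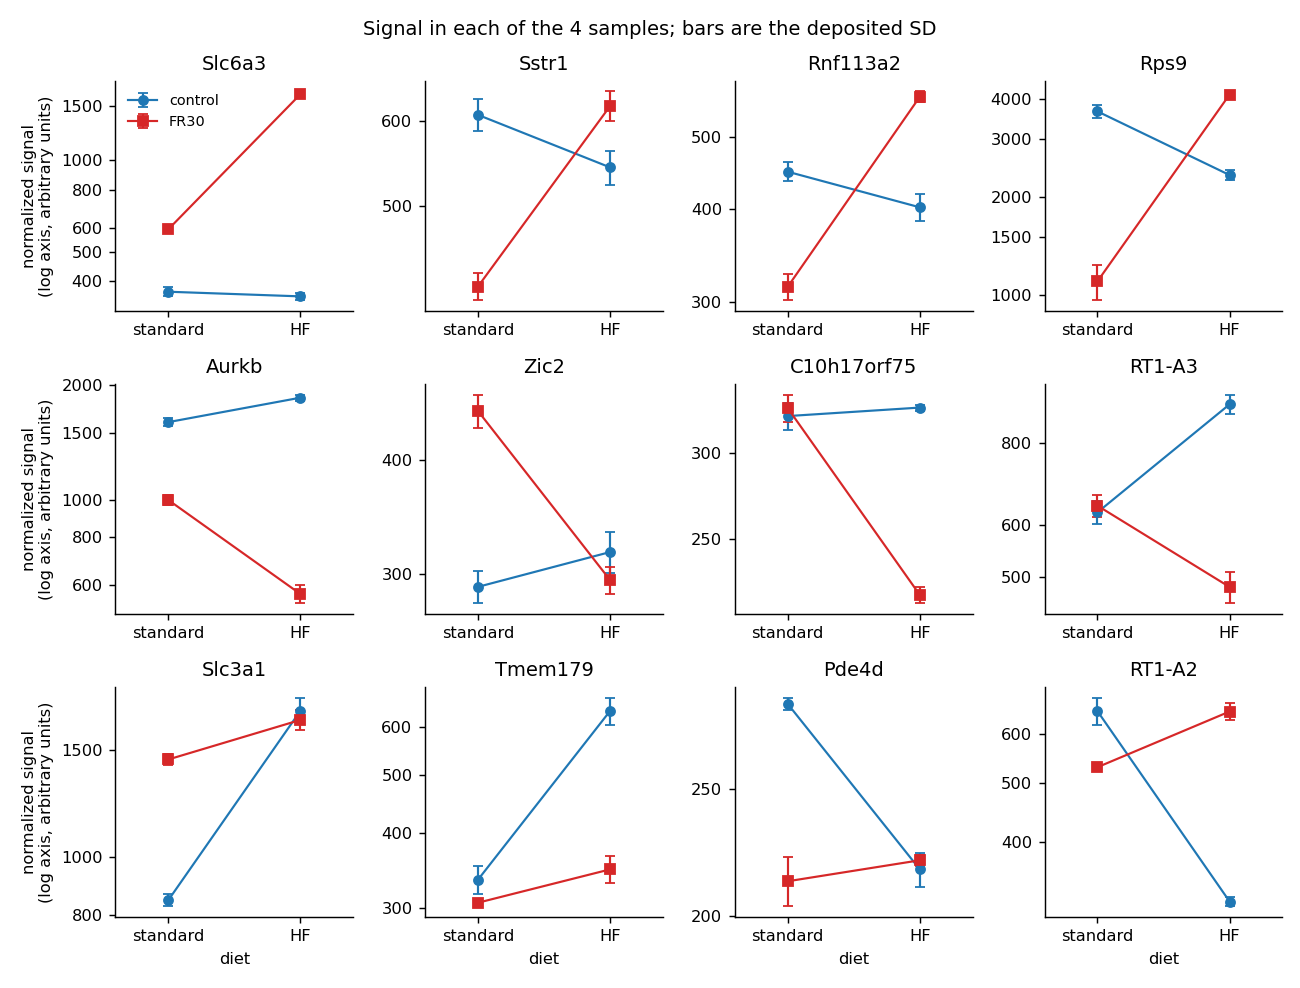
Authors' normalized signal (log axis, arbitrary units) of 12 genes on standard and HF diet in control (blue circles) and FR30 offspring (red squares), 1 sample per point; bars are the deposited SD. The lines cross or diverge in each panel: Slc6a3 reached 1642 in HF-fed FR30 rats against 357 in control offspring, and Pde4d was at 289.9 in standard-fed controls against between 213 and 221 in the other samples.

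In control offspring alone by size, the HF diet was accompanied by higher signals of 2 solute carriers. Slc3a1, a subunit of the cystine transporter, was at 848 ± 19.4 in standard-fed and 1738 ± 88.1 in HF-fed controls, against 1445 ± 32.6 and 1679 ± 61.9 in FR30 offspring. Standard-fed controls were the sample apart, on the low side, and the other 3 lay close together. The diet differences were 1.16 and 0.22, a difference of differences of -0.94 (-0.82 ± 0.102 on the authors' scale). Slc39a12, a zinc importer of brain, was at 1161 ± 10.5, 1764 ± 49.9, 1264 ± 38.4 and 1143 ± 30.9. Here HF-fed controls were the highest, with diet differences of 0.65 and -0.17 and a difference of differences of -0.82.

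Depp1, a regulator of autophagy induced by FOXO factors, and the ciliary gene Nphp4 were the other named genes of this kind, at -0.94 and -0.70. Both were dim, with signals between 188 and 221, and their values on the authors' scale were -0.32 ± 0.129 and -0.22 ± 0.103. Tmem179, a membrane protein gene, had a larger diet difference in control offspring, 1.32, but was at 0.32 in FR30 offspring and so outside the 1.2-fold bound. Its signal was 639 ± 33.2 in HF-fed controls, where it stood apart, and between 306 and 347 in the other samples, with a difference of differences of -1.01. The unnamed locus LOC499823, chosen after its value was seen, had a bright signal of 4806 ± 257 in standard-fed controls and 11677 ± 337 on HF diet, and of 8167 ± 111 and 8809.8 ± 89.7 in FR30 offspring, with standard-fed controls apart on the low side, giving -1.27.

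Lower signals on HF diet in control offspring alone by size were found for Pde4d, Hycc2, Pacsin1, Vof21, Dusp3, Aldh1a2, Itga1, Rora and Shox2. Pde4d, a phosphodiesterase that degrades cyclic AMP, was at 289.9 ± 3.17 in standard-fed controls, 217 ± 6.46 on HF diet, and 213 ± 9.13 and 221 ± 2.07 in FR30 offspring. Standard-fed controls stood apart above the other 3, and the difference of differences was 1.03 (0.47 ± 0.078 on the authors' scale). The other 22 detected genes of cyclic AMP signalling lay closer to 0, with the next, the adenylyl cyclase Adcy9, at 0.28. Hycc2, of the complex that holds a phosphatidylinositol 4-kinase at the plasma membrane, had the same shape, at 650.2 ± 36.2 against 421 ± 7.45, 404 ± 11.6 and 421 ± 10.4. Its difference of differences was 0.92 (0.69 ± 0.101 on the authors' scale).

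Pacsin1, which acts in the recycling of synaptic vesicle membrane, was at 486 ± 7.89 in standard-fed controls and between 321 and 349 in the other samples, a difference of differences of 0.85. Over 29 detected genes of vesicle release the median was 0.02, with 16 above 0 and Pacsin1 alone past 1.5-fold. The phosphatase gene Dusp3, a brighter member of this group, was at 1791 ± 85.8 in standard-fed controls and at 1208 ± 12.4, 1139 ± 37.8 and 1286 ± 60.8 in the others, with 0.79 (0.74 ± 0.109 on the authors' scale). For Pde4d, Hycc2, Pacsin1, Dusp3 and Vof21 the prenatal difference (FR30 minus control) was between -0.96 and -0.52 on standard diet and between -0.01 and 0.29 on HF diet.

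Aldh1a2, the retinoic acid synthesis enzyme that marks the meninges in brain, differed in another sample. It was at 396 ± 15.3 and 303 ± 15.5 in controls on standard and HF diet and at 398 ± 16.7 and 426 ± 14.6 in FR30 offspring, with HF-fed controls apart on the low side and a difference of differences of 0.77 (0.48 ± 0.121 on the authors' scale). Rora, a nuclear receptor that is a clock gene and also a thalamus marker, was at 1194 ± 40.2, 726 ± 14.4, 880.1 ± 25.4 and 781 ± 17.9, with 0.63. The homeobox gene Shox2 showed 0.61 with a wide deposited SD (592 ± 75.1 in standard-fed controls), and the collagen-binding integrin gene Itga1 0.76. The marker lists of meninges and thalamus, which moved with these genes, are described below.

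Among genes detected in all 4 samples, the furthest values belonged to Rps9, a protein of the small ribosomal subunit, and to the unnamed locus RGD1564649. Rps9 had a signal of 3653 ± 159 in standard-fed controls, 2329 ± 87.2 on HF diet, 1098 ± 136 in standard-fed FR30 rats and 4114 ± 90.5 on HF diet. Standard-fed FR30 rats stood apart on the low side. The diet difference was -0.62 in control and 2.01 in FR30 offspring, a difference of differences of 2.62 (2.56 ± 0.2 on the authors' scale). A dimmer Rps9 probe showed the same order, from 1951.6 ± 39.0 in HF-fed FR30 rats down to 212 ± 15.5 on standard diet, with a difference of differences of 5.48. RGD1564649 was at 2712 ± 98.0, 1509 ± 46.6, 266 ± 11.4 and 3148 ± 123, with 5.39. Probe sequences were not available, so whether the Rps9 and RGD1564649 probes hybridise with the same RNA was not tested. The other 65 detected cytosolic ribosomal protein genes lay between -0.15 (Rps16) and 0.23 (Rpl30). With Rps9 the list had a median of 0.03, with 48 of 66 genes above 0, against 46.9% of all genes.

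Class I histocompatibility genes, which present peptides at the cell surface and lie together on chromosome 20, stood far out in both directions. RT1-A2 had a signal of 655 ± 34.1 in standard-fed controls, 319 ± 5.80 on HF diet, 529.9 ± 8.03 in standard-fed FR30 rats and 654 ± 21.2 on HF diet. RT1-A3 was at 627 ± 24.7, 918 ± 32.2, 642 ± 24.8 and 482 ± 26.9. HF-fed controls stood apart for both genes, on the low side for RT1-A2 and on the high side for RT1-A3. The difference of differences was 1.88 for RT1-A2 (1.34 ± 0.095 on the authors' scale) and -1.21 for RT1-A3 (-0.96 ± 0.124).

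RT1-A1 was at 929 ± 13.5, 1350.1 ± 17.2, 1058 ± 47.0 and 889.6 ± 22.9, and its difference of differences was -0.94 (-0.79 ± 0.079 on the authors' scale). Like RT1-A3 it was highest in HF-fed controls and lowest in HF-fed FR30 rats. RT1-CE7 showed -1.07, but its deposited SD was wide, and on the authors' scale the value was -0.65 ± 0.365. Ifi47, an interferon-induced GTPase gene, followed the same order at a dim signal of 227 ± 2.46, 268 ± 3.54, 237 ± 4.95 and 203 ± 5.58, with -1.08 (-0.46 ± 0.056 on the authors' scale). Class I genes are near-identical copies whose probes may hybridise with each other's RNA, and their sequence varies between rats, so the level of a single RT1 gene is uncertain here.

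Other genes induced by interferon lay closer to 0, among them Mx2 (-0.43), Irf7 (-0.12) and Irf1 (0.13), and so did B2m (-0.04), the common partner chain of class I proteins. Over 23 detected genes of histocompatibility and interferon the median was -0.11, with 8 above 0 and 15 below. In that list RT1-A2 was past 1.5-fold higher and RT1-A3, RT1-A1 and Ifi47 were past 1.5-fold lower. The list does not hold RT1-CE7 or RT1-M10-1, a further RT1 gene of chromosome 20. RT1-M10-1 was dim, between 227 and 273, with -0.76 (-0.35 ± 0.136 on the authors' scale). Promoters were sought for RT1-A1, RT1-A2, RT1-A3, RT1-CE7 and Ifi47, and 4 of these 5 were in the RefSeq table for GRCr8. They are shown because the neighbouring class I genes had values of opposite sign. Capitals mark AGTTTCA, the first letters of the interferon-stimulated response element as class I promoters carry it, searched on both strands and chosen after the promoters were read. It was found in 4.45% of 33469 promoters of the same length. The match starts 107 bases before the start site of RT1-A1, 156 before that of RT1-A2, 151 before that of RT1-A3 and 52 before that of Ifi47, and all 4 stretches are on the plus strand.
RT1-A1, chr20:4907067-4907146: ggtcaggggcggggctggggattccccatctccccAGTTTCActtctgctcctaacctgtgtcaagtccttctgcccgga
RT1-A2, chr20:4872680-4872759: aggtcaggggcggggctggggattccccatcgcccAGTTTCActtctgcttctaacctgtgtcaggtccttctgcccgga
RT1-A3, chr20:4849265-4849344: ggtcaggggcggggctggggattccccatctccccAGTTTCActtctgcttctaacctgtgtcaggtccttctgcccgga
Ifi47, chr10:33798657-33798736: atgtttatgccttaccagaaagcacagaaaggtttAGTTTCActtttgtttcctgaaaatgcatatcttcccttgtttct

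Several further genes had diet differences of opposite sign that together passed 1.5-fold. Ythdf2, which binds methylated adenosine in messenger RNA and promotes its decay, was at 1418 ± 48.7 in standard-fed controls, 1159.6 ± 7.64 on HF diet, 883 ± 5.26 in standard-fed FR30 rats and 1663 ± 46.7 on HF diet. It was lowest and highest within FR30 offspring, with diet differences of -0.33 and 1.03 and a difference of differences of 1.35 (1.2 ± 0.065 on the authors' scale). Its relatives Ythdf1 (-0.13) and Ythdf3 (0.21) lay closer to 0.

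Chrna3, a nicotinic acetylcholine receptor subunit, showed 1.0 and Prg4, the gene of lubricin, 1.03, with both lowest in HF-fed controls and highest in HF-fed FR30 rats. Lower values were found for Eml2, a microtubule-associated protein gene, whose signal was 1172 ± 12.5 and 1627 ± 46.8 in controls on standard and HF diet and 1504 ± 49.6 and 1162 ± 37.9 in FR30 offspring, giving -0.93. Cd36, a fatty acid transporter, had the same crossed shape at 271 ± 4.42, 324 ± 4.69, 328 ± 12.7 and 288 ± 9.48, with -0.81 (-0.45 ± 0.080 on the authors' scale), and a second probe matched to Cd36 showed -1.39. It was the only one of 43 detected genes of fatty acid metabolism past 1.5-fold. Dim genes had smaller values on the authors' scale, which keeps the background: 0.36 for Albfm1, 0.30 for Ttk, 0.23 for Ier5, 0.34 for Itga1, 0.35 for Vof21 and Prg4, 0.32 for Nmbr, 0.43 for Cyp1b1, 0.59 for Chrna3, 0.56 for Pacsin1, -0.27 for Tnrc6a, -0.35 for Commd6 and -0.51 for Grm2.

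By pathway, 30 of the 125 genes past 1.5-fold belonged to any of the 37 lists used, and no pathway list as written held more than 4 of them. List medians are descriptions beside the all-gene median of -0.01. Genes of microglia and NF-kB inflammation were mostly below 0, with 18 of 25 detected and a median of -0.10, and none past 1.5-fold. Their diet difference was above 0 for 21 of 25 genes in control offspring (median 0.12) and for 16 in FR30 offspring (median 0.02), where 54.3% and 48.6% of all genes were above 0. Nfkbia, the inhibitor of NF-kB, was at 985 ± 18.2 in standard-fed controls and 1244 ± 47.6 on HF diet, and at 1294 ± 36.2 and 1315 ± 13.4 in FR30 offspring, so that standard-fed controls were lowest and the value was -0.35. The surface genes Cd14 (-0.38) and Itgam (-0.32) had values of like size, but both were dim. On the authors' scale they were at -0.14 ± 0.104 and -0.10 ± 0.080, against -0.31 ± 0.075 for Nfkbia.

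Immediate early genes, which follow neuronal activity, had 14 of 21 below 0 and a median of -0.11, with Fos at -0.35, Ier2 at -0.51 and Ier5 at 0.63. A second detected Ier5 probe showed 0.13. Fos and Ier2 were dim, at -0.17 ± 0.187 and -0.19 ± 0.147 on the authors' scale. GABA genes had 14 of 20 below 0 and a median of -0.09, with the transporter Slc6a11 (-0.57) and the receptor gene Gabbr1 (-0.52) at the low end and the receptor subunit Gabrb2 (0.62) past 1.5-fold at the other. Glutamate genes had a median of -0.06 over 22, with the metabotropic receptor Grm2 at -0.78. Thyroid hormone action had 11 of 13 above 0 and a median of 0.05, led by Dio2 (0.42), the enzyme that activates thyroid hormone in brain. Dio2 was dim, at 0.13 ± 0.103 on the authors' scale. Transporters of barriers had 12 of 16 above 0, 4 below and a median of 0.10. Slc22a2 (0.79), Slc4a4 (0.57) and Slc22a6 (0.46) were at the high end, and Slc3a1 (-0.94) and Slc39a12 (-0.82) at the low end.

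Lists of feeding peptides and their receptors (median 0.01 over 21), leptin, insulin and AMPK signalling (-0.06 over 17), fatty acid metabolism (0.00 over 43), cholesterol (-0.03 over 29) and DNA methylation and histone modifiers (-0.03 over 33) lay near the all-gene median. The sign of each of these 5 medians changed under at least 1 other processing setting, whereas those of the preceding 5 pathways and of inflammation did not.

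**Figure D3:**
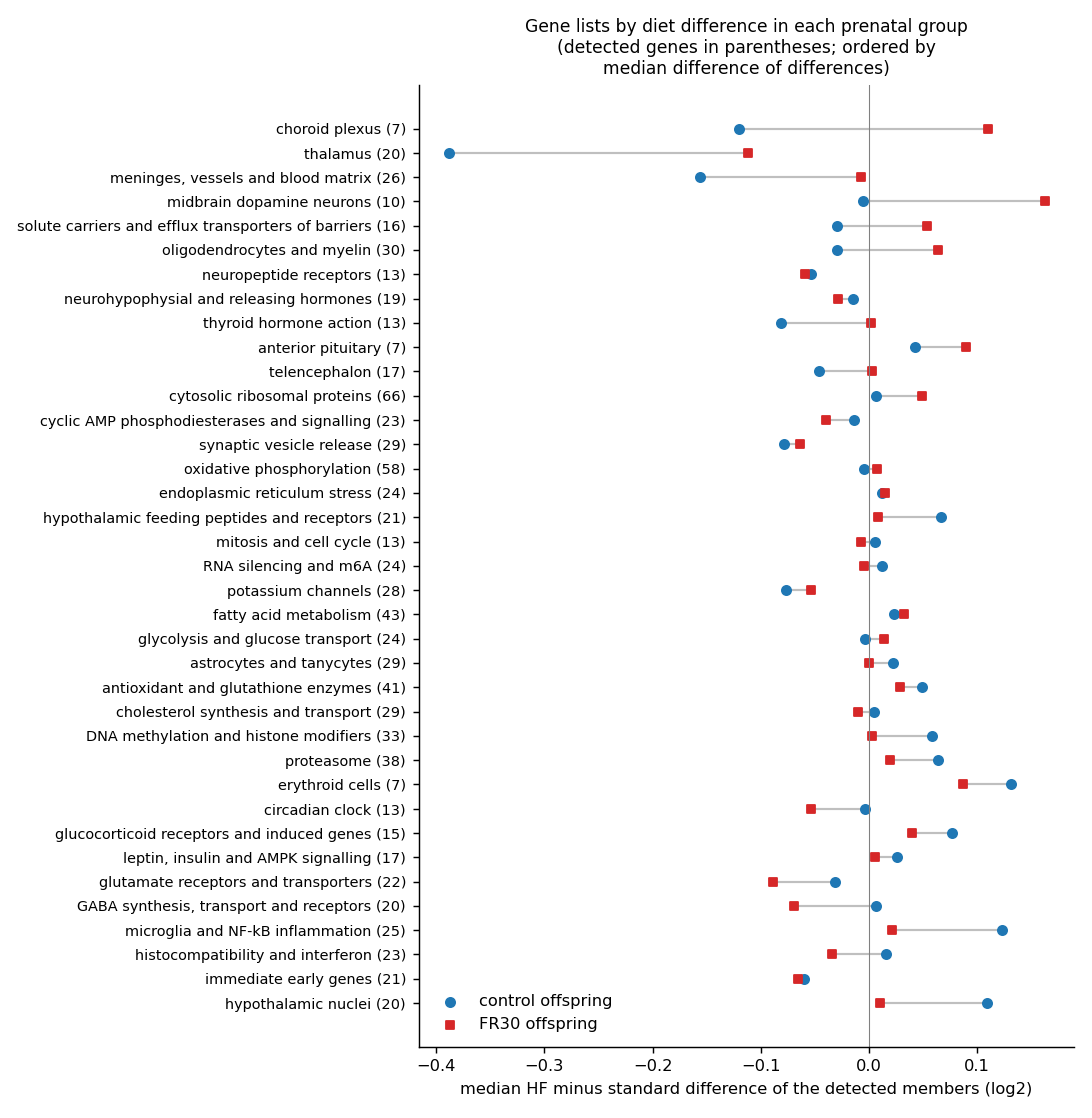
Median HF minus standard diet difference (log2) of the detected members of 37 gene lists in control offspring (blue circles) and FR30 offspring (red squares), 1 sample per group; the lists are ordered by the median difference of differences. Choroid plexus, thalamus and meninges lie at the top, with thalamus markers at a median of -0.39 in control and -0.11 in FR30 offspring, and most pathways lie within 0.1 of 0 in both.

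Marker genes of some tissues next to the hypothalamus moved with the comparison. Markers of telencephalon (median 0.04 over 17 detected) and anterior pituitary (0.05 over 7) moved less, with none past 1.5-fold. Thalamus markers had 17 of 20 detected members above 0 and a median of 0.22; their diet difference was below 0 for 18 of 20 in control offspring (median -0.39) and for 16 in FR30 offspring (median -0.11). Their mean log2 level was 8.79 and 8.39 in controls on standard and HF diet and 8.73 and 8.6 in FR30 offspring, with HF-fed controls lowest. Prkcd, a protein kinase C gene strong in thalamus, was at 1145 ± 25.9, 805 ± 35.3, 1240.1 ± 23.3 and 1180.5 ± 22.8, with 0.53. Of this list 28 genes were sought, and Rora was the member past 1.5-fold; without it the median was 0.21.

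Markers of meninges, vessels and blood matrix had 19 of 26 above 0 and a median of 0.21, with Cyp1b1 (0.88), Aldh1a2 (0.77), Igfbp2 (0.64) and Ogn (0.59) past 1.5-fold. Without Aldh1a2 the median was 0.18. Their mean log2 level was 8.85 and 8.61 in controls on standard and HF diet and 8.88 and 8.86 in FR30 offspring, again lowest in HF-fed controls. Ogn, a matrix proteoglycan gene, was at 1610.3 ± 27.6, 1134 ± 28.9, 1612 ± 53.6 and 1663 ± 52.0, which places only that sample apart from the rest by eye. Of the endothelial markers, Cldn5 (-0.19) and Tek (-0.18) lay below 0, and Esam (-0.04) and Vwf (0.003) lay near 0. Pecam1, Cdh5 and Pdgfrb had no value here, being off the array or not detected in all 4 samples. Choroid plexus markers had 7 of 7 above 0 (median 0.25), of 20 sought. The lists overlap: Igf2 (0.31) and Igfbp2 (0.64) are also in the meningeal list, and Enpp2 (0.25) is also in the myelin list. Kcnj13, a potassium channel gene of the choroid plexus list, was at 0.04. Markers of neighbouring tissue and blood, with midbrain dopamine neurons and so Slc6a3 counted in, were past 1.5-fold for 6 of 91 detected (6.59%). The share of all genes was 1.24%. These lists were written with earlier results of these data known, so the 2 shares are a description and not a test. The part of these markers in the values of other genes was not tested.

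Transcription factors of hypothalamic nuclei had 13 of 20 below 0 and a median of -0.14, with Rax (-0.50) and Nkx2-1 (-0.33) beside Zic2 on the low side and Meis2 (0.44) and Six6 (0.20) on the high side. Rax and Nkx2-1 were dim, at -0.18 ± 0.088 and -0.14 ± 0.128 on the authors' scale. Without Zic2 the list median was -0.12. The median diet difference of the list was 0.11 in control and 0.01 in FR30 offspring, the opposite side of 0 from the thalamus markers in control offspring. Myelin genes had 24 of 30 above 0 and a median of 0.09, with Mag (0.40) and Cryab (0.39) at one end, Plekhh1 (-0.40) and Cspg4 (-0.32) at the other and none past 1.5-fold.

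**Figure D4:**
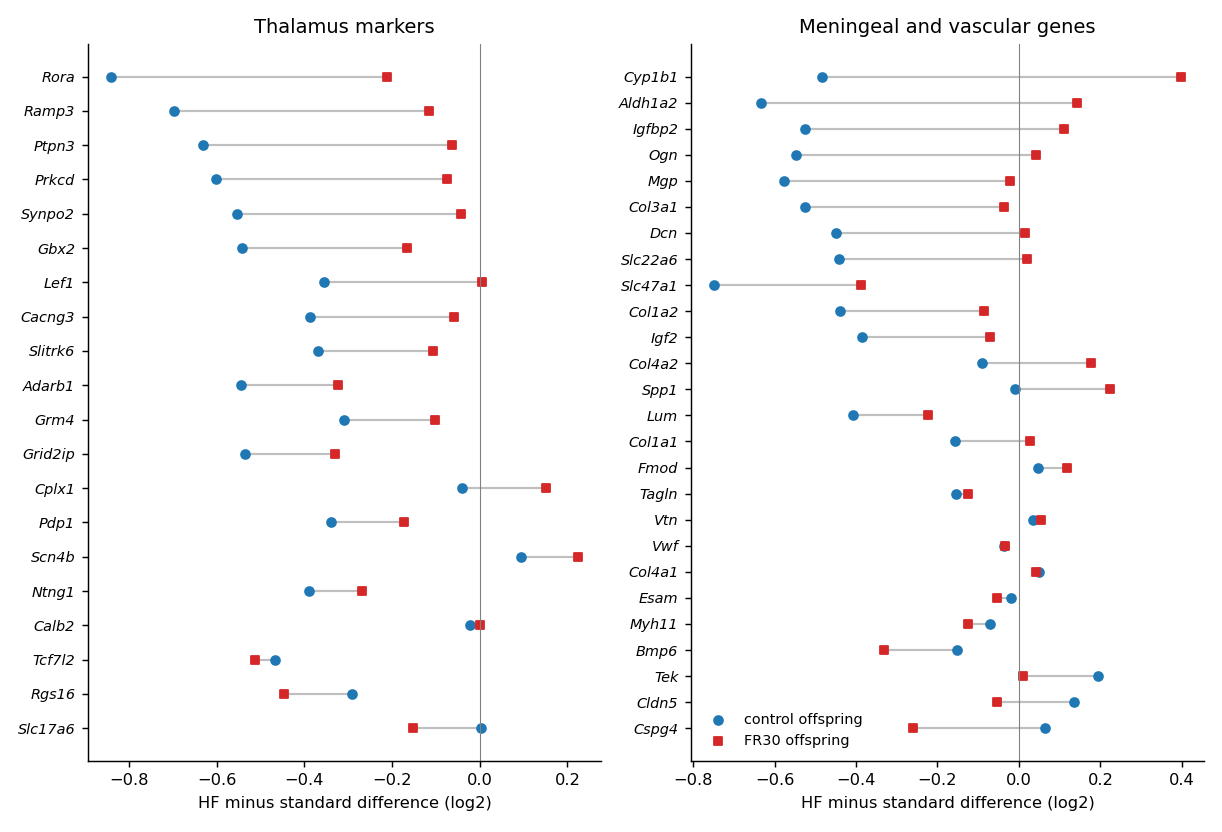
HF minus standard diet difference (log2) of each detected thalamus marker (left) and of each detected gene of meninges, vessels and blood matrix (right) in control offspring (blue circles) and FR30 offspring (red squares), 1 sample per group. Most blue points lie to the left of the red point of the same gene, as for Rora (-0.84 and -0.21) and Aldh1a2 (-0.63 and 0.14).

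The best-known feeding genes were below 1.5-fold in the comparison. Pomc, the precursor of the appetite-lowering melanocortins, was at 2028 ± 18.8 and 2368 ± 70.1 in controls on standard and HF diet and at 2318 ± 113 and 3497 ± 199 in FR30 offspring. HF-fed FR30 rats were the highest, with diet differences of 0.24 and 0.55 and a difference of differences of 0.31 (0.37 ± 0.117 on the authors' scale). The appetite-raising peptide genes Agrp (-0.06) and Npy (0.03) had nearly equal diet differences. Oxt, the oxytocin gene, was at 10024 ± 127, 7723 ± 289, 8656 ± 101 and 8198 ± 286, highest in standard-fed controls, with 0.35. Hcrt showed -0.22, and Pmch, Avp, Gal, Cartpt and Mc4r lay between -0.06 and 0.09. Kiss1, Lepr, Insr and Socs3 were not detected in any of the 4 samples and so have no value. Nmu, the neuromedin U gene, passed 1.5-fold on the lower side at -0.59, with 1546 ± 57.7, 1869.7 ± 22.9, 1927 ± 41.2 and 1627 ± 40.1.

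Genes not detected in 1 of the 4 samples have only a bound, taken from the dimmest detected probes of that sample, and 258 genes were of this kind. The bound was past 1.5-fold above 0 for 9 of them and below 0 for 6. On the authors' scale it was past 1.5-fold for 3 of these, Ttr, Prl and RGD1566136. Ttr, the transthyretin gene of choroid plexus, was at 523 ± 14.9 in standard-fed controls, not detected on HF diet, 209 ± 8.19 in standard-fed FR30 rats and 1251 ± 49.1 on HF diet, which gives a difference of differences at least 118-fold higher on background-corrected values and at least 17.1-fold higher on the authors' scale. Prl, the prolactin gene of the anterior pituitary, was at 759 ± 17.7, not detected, 313 ± 11.6 and 240 ± 15.1, at least 7.52-fold higher (3.2-fold on the authors' scale). Both are defining markers of tissue that adjoins the hypothalamus, and among pituitary markers Cga, Pou1f1 and Lhb were likewise not detected in all 4 samples. Of the 19 pituitary markers listed, 17 were on the array. The 7 pituitary markers detected in all 4 samples had a median of 0.05, with 5 above 0 and 2 below. Of these, Tshb did not share the pattern of Prl, at 3456 ± 124, 3987 ± 70.3, 4429 ± 55.5 and 5329 ± 176, with 0.05. Srebf2, a regulator of cholesterol synthesis, was dim, between 196 and 216, and not detected in HF-fed FR30 rats, at least 1.55-fold lower (1.15-fold on the authors' scale).

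The diet difference passed 1.5-fold in the same direction in both prenatal groups for 3 genes. Hbb, a beta globin gene of red cells, was at 4559.5 ± 94.8 and 8350.1 ± 85.5 in controls on standard and HF diet and at 5340.1 ± 127 and 9337 ± 411 in FR30 offspring, with diet differences of 0.89 and 0.86 and a difference of differences of -0.03. MGC72973 had diet differences of 0.81 and 0.85. Commd6 was lower on HF diet in both, with diet differences of -0.96 and -1.71, at a dim signal between 194 and 328, with a difference of differences of -0.75.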

How the data were processed

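RNA of 4 hypothalamus samples, 1 per group, was measured on Illumina bead arrays. The authors deposited a table of non-normalized signal intensities with detection p-values per probe, and normalized intensities with an SD beside them. They used GenomeStudio per the submitters' processing notes; how they normalized is not stated in the sources used here. A further deposited table held the same normalized intensities.

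The non-normalized intensities were background-corrected and quantile-normalized with neqc of limma 3.58.1 (R 4.3.3; offset 16), which gave log2 values computed here from the deposited intensities. Probes were named from the files' symbols, updated through the RefSeq gene table: 10291 probes had a current symbol, 4966 an older one and 5495 kept the file's symbol. The brightest probe detected in all 4 samples (detection p under 0.01) stood for a gene. Diet differences were HF minus standard; a fold of 1.5 was the threshold and 1.2 the bound for the other group. On the authors' scale, deposited SDs were propagated to the difference of differences. The script was checked on simulated data. Differences were planted only in bright probes and only in the sample of HF-fed FR30 rats, so the check does not cover dim genes.

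Genes were named by rule: the 12 highest and 12 lowest, up to 10 per class, up to 4 per list and a fixed set of hypothalamic genes; names outside it were chosen after their values were seen. The members and the 37 gene lists were chosen with earlier results of these data known. With 1 sample per group no test was possible, and the number of arrays limits the precision. Median SD was between 2.80 and 3.12% of the signal. Alternatives changed the normalization, background correction, offset, detection filter, probe rule and fold threshold. List values without the gene a list is set beside, and bounds on the authors' scale, were added after seeing the data. Results for some genes are not reported here.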

Additional observations from a re-analysis of the deposited data

Results flagged for a closer look

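RGD1564649 and Rps9 moved past 1.5-fold in opposite directions on HF diet in the 2 prenatal groups, lower in control and higher in FR30 offspring, with a difference of differences of 5.39 for RGD1564649 and 2.62 for Rps9. With 1 sample per group the difference was not tested. In both genes FR30 offspring on standard diet stood apart on the low side. Both Rps9 probes had the same order of samples but differed in size, at 2.62 and 5.48. Whether the probes of Rps9 and RGD1564649 hybridise with the same RNA was not tested, so they may not be separate observations.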

How the results depend on the processing

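With 1 sample per group no sample could be left out, and the spread between samples of a group is not known. The only measures of precision are second probes and the deposited SD, whose basis is not stated. For 239 genes with 2 detected probes, the difference of differences of the 2 probes had a Spearman's rho of 0.294. Pearson's r was 0.75, and 0.372 without Rps9. Of 4 such genes past 1.5-fold, 4 kept the sign in the second probe and 3 passed 1.5-fold there. Dim probes, close to background, depend most on the background correction. No paired analysis was possible because each group held 1 sample. The count of 125 genes past 1.5-fold became 30 on the authors' normalized intensities, 32 without background correction, 68 with an offset of 50, 221 with no detection filter and 19 at a threshold of 2-fold. In the same order, the 56 genes of control offspring became 16, 15, 31, 86 and 6; the 30 genes of FR30 offspring became 17, 17, 21, 60 and 10, and 47 at a detection p under 0.05; and the 30 genes of 1 prenatal group became 11, 14, 19, 53 and 6. Centring on the median and averaging probes kept each of these 4 counts within 1.5 times. All 50 named genes past 1.5-fold kept their sign in the alternatives run, and 20 of them stayed past 1.5-fold on the authors' intensities, 21 without background correction and 38 with an offset of 50.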
